A study of Mus musculus with 30 samples.

Results

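The data described here are 10 RNA sequencing libraries of mouse bone marrow-derived macrophages in the M1 state, 5 from TRα1PV mice and 5 from WT mice, out of 30 libraries in the series. They were chosen by their labelled state, and the genotypes were compared across all genes. Macrophages were grown from bone marrow for 7 days in medium with 15 or 20% L929-conditioned medium, a source of the growth factor that drives macrophage differentiation. TRα1PV M1 and WT M1 cells received lipopolysaccharide (LPS) with interferon-γ, both at 20 ng/mL. TRα1PV M0 and WT M0 cells received no stimulus, and TRα1PV M2 and WT M2 cells received 20 ng/mL interleukin-4, again with 5 libraries in each group. The labels call TRα1PV a transgenic line with a mutation of thyroid hormone receptor α1. Neither the strain, age and zygosity of the mice, nor the length of stimulation, nor the number of animals behind a library is given in the sources used here. The series asks how the genotypes differ within each state, and its title speaks of diminished pro-inflammatory characteristics.

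Thyroid hormone receptor α1 is a nuclear receptor that sits on DNA with the retinoid X receptor. Without its ligand triiodothyronine (T3) it recruits corepressors, and with T3 it recruits coactivators. The PV mutant does not bind T3 and acts in a dominant negative way on the normal receptors. LPS acts through Toll-like receptor 4 and NF-kB, and interferon-γ through the JAK-STAT pathway and IRF1. Together they switch macrophages to inflammatory cytokines, nitric oxide synthesis and antigen presentation.

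Levels are given in CPM, that is a gene's reads scaled by library size with TMM factors, in the order of replicates 1 to 5. Fold changes are log2 of TRα1PV over WT ± SE from edgeR's quasi-likelihood test, and adjusted p is Benjamini-Hochberg over the 15686 genes tested. Values in parentheses after a gene are its log2 fold change, with SE and adjusted p where given, and means stand with ± SD over n = 5 libraries a group. A gene was called at an adjusted p under 0.05, and rose, fell, higher and lower are used of called genes unless values say otherwise. The libraries held 30667234 to 41543794 reads in genes for TRα1PV and 31566297 to 36018814 for WT. The first principal component of the 10 libraries held 31.3% of the variance and separated the genotypes, from 8.10 to 36.4 in TRα1PV and from -34.2 to -7.39 in WT. Mitochondrially encoded genes took 0.705 ± 0.201% of reads in TRα1PV and 0.938 ± 0.163% in WT (SD, n = 5 each, exact permutation p = 0.0873, two-sided, adjusted over 15 measures p = 0.218). TRα1PV replicates 1 and 3 had the lowest shares, 0.485% and 0.492%. P-values measure the spread between libraries labelled as biological replicates. In edgeR's test that spread was estimated per gene over all 30 libraries. The p-values and SEs for M1 therefore also rest on the spread in M0 and M2.

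In M1, 3132 of the 15686 genes (20.0%) were called, of which 1528 (9.74%) were higher and 1604 (10.2%) lower in TRα1PV. Most differences were small: the median absolute log2 fold change of called genes was 0.40, and 307 genes (1.96%) differed at least 2-fold, 167 higher (1.06%) and 140 lower (0.893%). The 5 TRα1PV libraries lay wholly apart from the 5 WT libraries in 1814 genes (11.6%), above them in 887 (5.65%) and below them in 927 (5.91%). Libraries of one number carry that number as a batch label, and 87.1% of the genes called higher were higher in all 5 same-numbered pairs, as 86.2% of those called lower were lower in all 5. Both shares cover only genes already called for a difference between the groups, so they are no separate test. Without TRα1PV replicates 1 and 3, the libraries of lowest mitochondrial share, 1370 genes were called.

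**Figure D1:**
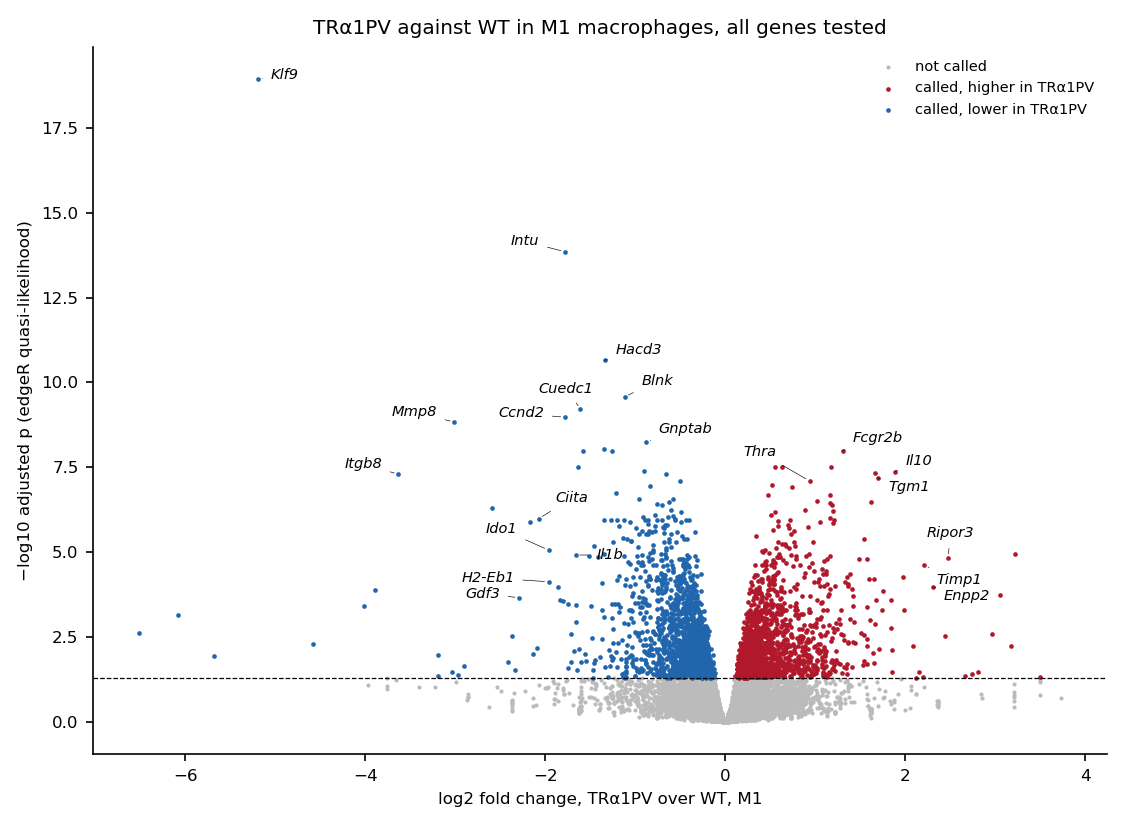
log2 fold change of TRα1PV over WT in M1 (horizontal axis) against -log10 of edgeR's adjusted p (vertical axis) for the 15686 genes tested, with called genes coloured by direction and the dashed line at an adjusted p of 0.05. Klf9 stands farthest up, at a log2 fold change of -5.19, and Fcgr2b has the smallest adjusted p among the genes that were higher in TRα1PV.

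The receptor genes were checked first. Thra, which encodes thyroid hormone receptor α1, had 53.8, 45.4, 51.7, 48.9 and 46.1 CPM in the TRα1PV libraries, against 35.0, 21.1, 21.4, 28.5 and 22.3 CPM in the WT libraries. All 5 TRα1PV values exceeded all 5 WT values (0.94 ± 0.10, adjusted p = 7.95e-08). Gene counts do not separate the mutant from the normal allele or α1 from the other products of Thra. Thrb, the gene of the β receptor, had 2 reads over the TRα1PV libraries and 1 over the WT libraries, so no fold is given. Rxra, the retinoid X receptor partner, was higher at 48.3 ± 2.54 CPM in TRα1PV cells and 28.8 ± 1.30 CPM in WT cells (0.75 ± 0.08, adjusted p = 1.17e-07). Of the list of receptors and cofactors, 4 of 14 tested members were higher (2 without TRα1PV replicates 1 and 3) and none lower, beside 9.74% higher over all genes tested. The list's median log2 fold change was 0.17 against 0 over all genes tested. The other called members were the coactivators Ncoa1 (0.20) and Ncoa3 (0.20).

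Klf9, a Kruppel-like transcription factor that is a known direct target of T3 in other tissues, was the most changed gene. It had 0.538, 0.629, 0.787, 0.793 and 0.988 CPM in the TRα1PV libraries, against 25.3, 22.4, 29.7, 36.7 and 23.5 CPM in the WT libraries. The groups did not overlap, and the level was 36.4-fold lower in TRα1PV (-5.19 ± 0.17, adjusted p = 1.16e-19). Of the 15 tested genes on a list of T3-responsive genes, 5 were lower and 1 higher (40.0% called, beside 20.0% of all genes tested), with a median of -0.20. Those that fell with Klf9 were Dbp, a clock output factor (-1.06), Idh3a, a subunit of isocitrate dehydrogenase (-0.53), Cpt1a, which carries fatty acids into mitochondria (-0.43), and Me1, the cytosolic malic enzyme (-0.36). Me1 was not called without TRα1PV replicate 2 or 5 or WT replicate 3 or 5 (adjusted p = 0.0594 to 0.083). Bcl3, an atypical IkB protein, rose (0.32) and was not called without WT replicate 3. Hr, another known T3 target, averaged 0.117 ± 0.0682 CPM in TRα1PV cells and 0.247 ± 0.158 CPM in WT cells and was not called (-1.03 ± 0.51, adjusted p = 0.15). Nr1d1, which encodes the clock repressor REV-ERBα, rose to 6.55 CPM in TRα1PV cells, against 3.78 CPM in WT cells (0.79 ± 0.16, adjusted p = 0.000655). Nr1d1 lies opposite Thra on the genome with overlapping ends, and whether the counting used strand is not stated, so reads of these 2 genes may not be fully told apart. Among Kruppel-like factors Klf13 (-0.44), Klf4 (-0.41) and Klf6 (-0.35) were lower too, which makes 4 of 10 tested members lower and none higher (10.2% of all genes tested were lower). Klf6 was not called without TRα1PV replicate 1 or 3 or WT replicate 3 (adjusted p = 0.0534 to 0.0789).

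Cytokine genes moved both ways. Of 18 tested members of the pro-inflammatory cytokine list, 5 were lower and 4 higher in TRα1PV, against 10.2% and 9.74% over all genes tested. Il1b, the interleukin-1β gene, had 14.7, 8.37, 6.86, 13.4 and 14.4 CPM in the TRα1PV libraries, against 21.3, 43.0, 32.0, 22.3 and 64.9 CPM in the WT libraries. These groups did not overlap, and Il1b was 3.16-fold lower in TRα1PV (-1.66 ± 0.24, adjusted p = 1.21e-05). As the groups did not overlap, Il1b was lower in all 5 same-numbered pairs whatever the pairing.

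Il6 had 12.5, 12.7, 10.8, 14.1 and 27.6 CPM in the TRα1PV libraries, against 17.7, 27.9, 25.8, 26.0 and 39.1 CPM in the WT libraries. TRα1PV replicate 5 stood above the other 4 TRα1PV libraries and the groups overlapped (-0.81 ± 0.22, adjusted p = 0.0104); without WT replicate 5 the adjusted p was 0.0523. Tnf had 203, 156, 206, 214 and 259 CPM in the TRα1PV libraries, against 186, 379, 332, 231 and 361 CPM in the WT libraries. Its groups overlapped too (-0.52 ± 0.15, adjusted p = 0.0167), and it was lower in 4 of 5 pairs. It was not called without TRα1PV replicate 2 (adjusted p = 0.0566), WT replicate 2 (0.0663) or WT replicate 5 (0.0582). Il12b, the p40 chain of interleukin-12 and interleukin-23, had 158, 138, 208, 209 and 532 CPM in the TRα1PV libraries, against 325, 373, 364, 436 and 496 CPM in the WT libraries. TRα1PV replicate 5 was the highest of all 10 libraries for Il12b (-0.68 ± 0.24, adjusted p = 0.0443), and the call ended on leaving out any 1 library other than TRα1PV replicate 5 or WT replicate 1 (adjusted p = 0.0601 to 0.138), with DESeq2 (0.360) and in a fit of the M1 libraries alone (0.109). Il1a, the interleukin-1α gene, singled out after its values were seen, also fell (-0.71 ± 0.20, adjusted p = 0.0131). The count of 5 lower cytokines was 3 without TRα1PV replicate 2 or without WT replicate 2, 2 without WT replicate 5, and 1 without TRα1PV replicates 1 and 3, when Il1b alone still passed.

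The 4 cytokine genes that rose were Ebi3, the shared chain of interleukin-27 and interleukin-35, Ifnb1, the interferon-β gene, Tnfsf9, the 4-1BB ligand, and Osm, oncostatin M. Ebi3 had 189, 162, 205, 144 and 156 CPM in the TRα1PV libraries, against 100.02, 101, 79.7, 85.6 and 95.7 CPM in the WT libraries. Every TRα1PV library lay above every WT library (0.89 ± 0.10, adjusted p = 5.64e-07). Ifnb1 averaged 4.31 ± 0.444 CPM in TRα1PV cells and 2.37 ± 0.339 CPM in WT cells (0.86 ± 0.17, adjusted p = 0.00068). Tnfsf9 (0.78 ± 0.15, adjusted p = 0.000507) and Osm (0.50 ± 0.12, adjusted p = 0.0036) rose by less.

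**Figure D2:**
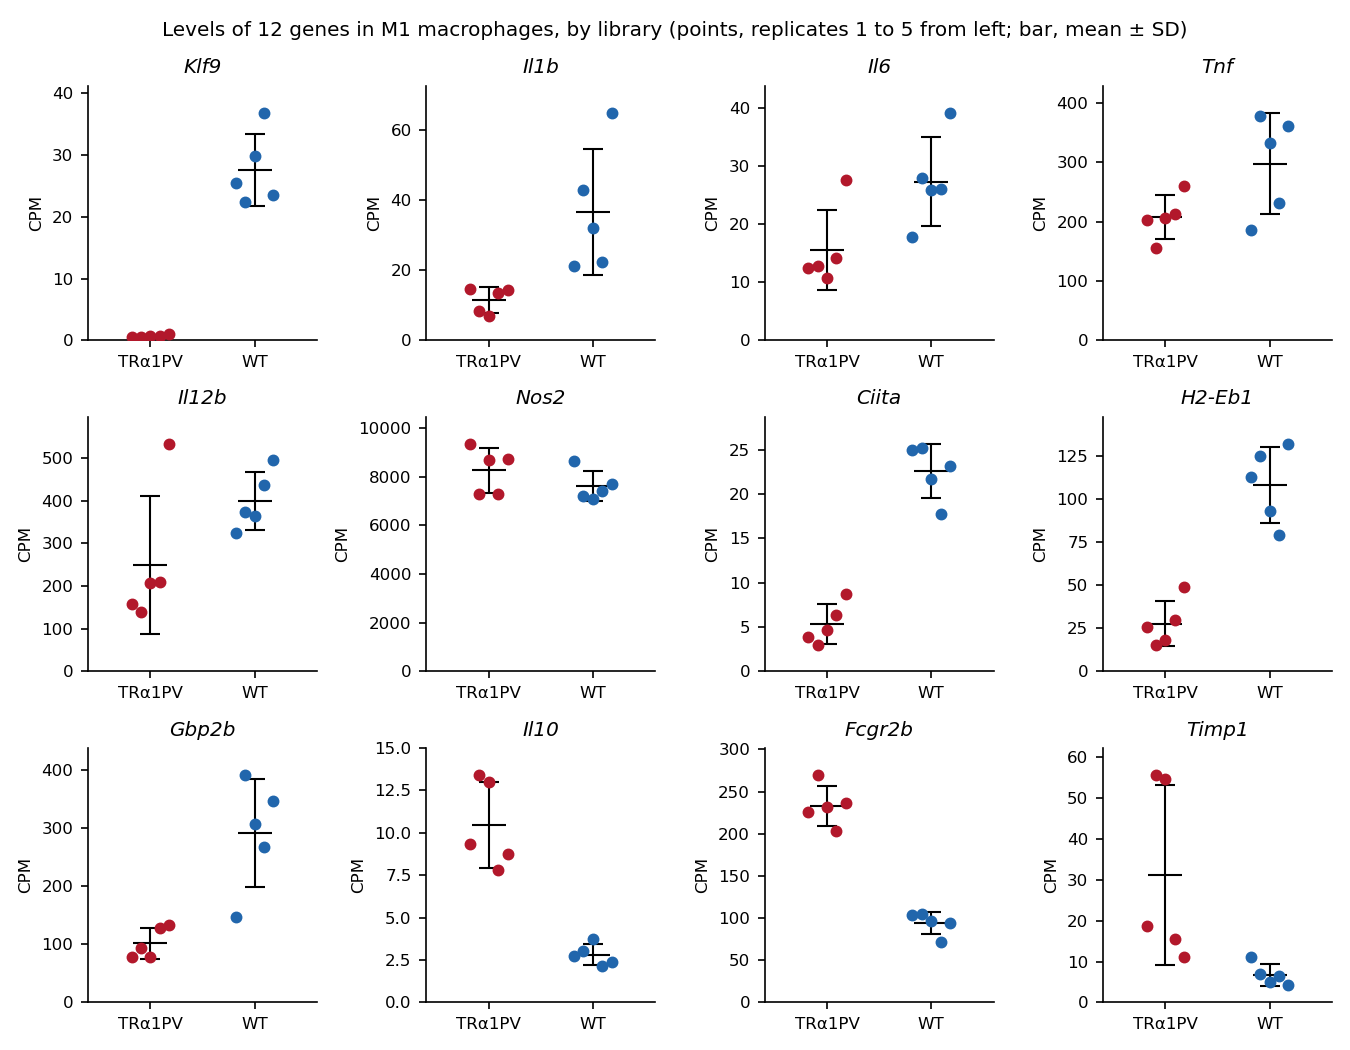
Level in CPM (vertical axes, from 0) of 12 genes in each M1 library, TRα1PV left and WT right, with points for replicates 1 to 5 and bars for the mean ± SD. Klf9, Il1b, Ciita, H2-Eb1, Gbp2b, Il10, Fcgr2b and Timp1 show no overlap of the groups, whereas Il6, Tnf, Il12b and Nos2 overlap.

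The shares called were 23.1% of the CC chemokines, 20.0% of the CXC chemokines and 27.3% of the chemokine receptors, beside 20.0% of all genes tested. Of 13 CC chemokines tested, Ccl4 (1.03) and Ccl3 (0.68) were higher and Ccl6 was lower (-1.22). Of 10 CXC chemokines, Pf4 was higher (0.50) and Cxcl14 lower (-1.19), with Pf4 not called without TRα1PV replicate 3 (adjusted p = 0.0578) or WT replicate 4 (0.0507). The interferon-induced Cxcl9 averaged 4339 ± 381 CPM in TRα1PV cells and 4515 ± 323 CPM in WT cells and was not called (-0.06 ± 0.24, adjusted p = 0.898), nor were Cxcl10 (-0.26 ± 0.21, adjusted p = 0.394) and Ccl5 (0.02 ± 0.19, adjusted p = 0.951). Among 11 chemokine receptors, Ccr7, which guides cells to lymph nodes, averaged 65.05 ± 23.5 CPM in TRα1PV cells and 136 ± 28.4 CPM in WT cells (-1.06 ± 0.18, adjusted p = 9.99e-05). The decoy receptor Ccrl2 was also lower (-0.42).

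Inducible nitric oxide synthase showed no detectable difference. Nos2 had 9332, 7298.3, 8685, 7282 and 8721 CPM in the TRα1PV libraries, against 8659, 7194, 7096, 7418 and 7714 CPM in the WT libraries. The groups overlapped (0.12 ± 0.31, adjusted p = 0.828). Among 19 alternative fits the smallest adjusted p of Nos2 was 0.278. Arg1, the arginase that uses the same substrate, had 13.9, 15.0, 14.6, 10.4 and 13.8 CPM in the TRα1PV libraries, against 6.25, 5.03, 5.996, 12.2 and 6.87 CPM in the WT libraries. Arg1 rose (0.90 ± 0.22, adjusted p = 0.00428), with WT replicate 4 inside the TRα1PV range.

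Ciita, H2-Aa and H2-Eb1 were among 6 genes of antigen presentation by MHC class II that fell. Class II molecules present peptides to CD4 T cells, and their genes are switched on by the coactivator CIITA, which interferon-γ induces. Of 13 tested members of the list, 6 were lower and 1 higher (2 higher with the replicate number as a block or without TRα1PV replicate 4), with a median log2 fold change of -0.42. The other 6 were not called, and the 6 lower members did not overlap between the genotypes. Over all genes tested, 10.2% were lower and 9.74% higher, and in 5.91% every TRα1PV library lay below every WT library. Leaving out any 1 library left 6 or 7 members lower, and 6 were lower without TRα1PV replicates 1 and 3.

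Ciita had 3.84, 3.03, 4.68, 6.38 and 8.73 CPM in the TRα1PV libraries, against 25.0, 25.2, 21.7, 17.7 and 23.2 CPM in the WT libraries. This was 4.20-fold lower in TRα1PV (-2.07 ± 0.25, adjusted p = 1.02e-06). The groups did not overlap, so Ciita was lower in 5 of 5 pairs whatever the pairing. H2-Eb1, the β chain of the I-E molecule, had 25.8, 15.6, 18.5, 29.6 and 49.3 CPM in the TRα1PV libraries, against 113, 125, 93.2, 79.2 and 132 CPM in the WT libraries, a 3.89-fold difference (-1.96 ± 0.33, adjusted p = 7.41e-05). H2-Aa, the α chain of I-A, had 40.2, 24.2, 30.8, 50.02 and 86.2 CPM in the TRα1PV libraries, against 162, 183, 134, 116 and 183 CPM in the WT libraries (-1.74 ± 0.33, adjusted p = 0.000335). In these 3 genes TRα1PV replicate 5 was the highest TRα1PV library and still lay below every WT library.

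The other members that fell were Cd74, the invariant chain, at 285 ± 109 CPM in TRα1PV cells and 680.0 ± 126 CPM in WT cells (-1.26 ± 0.26, adjusted p = 0.000865), H2-Ab1, the β chain of I-A (-1.24 ± 0.28, adjusted p = 0.00185), and H2-Ob, a chain of the loading modulator H2-O (-1.09 ± 0.28, adjusted p = 0.00548). Marchf1, a ubiquitin ligase that removes class II molecules from the surface, was the 1 higher list member (0.61 ± 0.16, adjusted p = 0.00583). It was named after its values were seen. Dendritic cells carry the same genes, and 10 markers of that cell type were tested, of which 3 were lower and 1 higher (40.0% called, beside 20.0% of all genes tested). The summed level of the marker list ranged from 59.8 to 116.8 CPM in TRα1PV and from 130.7 to 194.1 CPM in WT (exact permutation p = 0.00794, two-sided, the smallest that 5 against 5 can give, adjusted p = 0.0595). Ccr7, which activated macrophages express too, made up most of that sum. Some defining markers were near 0, with 13 reads of Flt3 over the TRα1PV libraries and 7 over the WT libraries, 1 and 0 of Cd209a, and none of Siglech in either. Zbtb46 averaged 0.518 ± 0.0715 CPM in TRα1PV cells and 1.05 ± 0.279 CPM in WT cells. Xcr1, a receptor of cross-presenting dendritic cells, averaged 0.689 ± 0.198 CPM in TRα1PV cells and 1.55 ± 0.382 CPM in WT cells and was lower in 5 of 5 pairs (-1.16 ± 0.34, adjusted p = 0.0144), a call that ended without TRα1PV replicate 3 (adjusted p = 0.0561). Batf3, a transcription factor of the same cells, was the 1 higher marker (0.58 ± 0.18, adjusted p = 0.0254), and its call ended without TRα1PV replicate 3 or WT replicate 2, 3 or 4 (0.0526 to 0.123). Marker sums of 3 further cell types had higher means in TRα1PV at an unadjusted exact permutation p under 0.05, none past 0.05 after adjustment over 15 measures. B cell markers summed to 6.16 ± 1.51 CPM in TRα1PV libraries, against 4.01 ± 0.365 CPM in WT libraries (SD, n = 5 each; two-sided exact permutation p = 0.00794, adjusted p = 0.0595). Endothelial markers summed to 141 ± 12.6 CPM in TRα1PV libraries, against 110.0 ± 10.3 CPM in WT libraries (exact permutation p = 0.0159, adjusted p = 0.0794). Erythroid and megakaryocyte markers summed to 85.1 ± 13.4 CPM in TRα1PV libraries, against 59.7 ± 6.76 CPM in WT libraries (exact permutation p = 0.0238, adjusted p = 0.0893). Pf4, also a member of the CXC chemokine list, made up most of that sum, with means of 81.7 CPM in TRα1PV and 57.9 CPM in WT. Of 5 endothelial markers tested, 1 was higher and none lower (20.0% called, beside 20.0% of all genes tested). In 2 of the 5 every TRα1PV library lay above every WT library, and in none below. Over all genes tested these shares were 5.65% and 5.91%. Emcn, another endothelial gene, had no reads in either genotype. The part of dendritic or other cells in the class II result was not tested. In bulk RNA, fewer cells of a type and less RNA per cell cannot be told apart.

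Promoter sequences of 2 class II genes that fell, H2-Aa and H2-Eb1, are shown because their Y box, one of the conserved elements on which the CIITA complex assembles, can be read in them. They run from 250 bases before to 50 after the RefSeq start on GRCm38.p6, 5′ to 3′ on the gene's strand, and capitals mark the Y box core CTGATTGG, searched on both strands.
H2-Aa, chr17:34287774-34288073, minus strand: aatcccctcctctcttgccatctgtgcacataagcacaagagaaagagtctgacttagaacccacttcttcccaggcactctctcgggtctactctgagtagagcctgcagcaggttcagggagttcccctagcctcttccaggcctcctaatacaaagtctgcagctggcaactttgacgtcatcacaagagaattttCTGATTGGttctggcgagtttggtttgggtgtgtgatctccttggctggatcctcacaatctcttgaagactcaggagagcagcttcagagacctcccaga
H2-Eb1, chr17:34305617-34305916, plus strand: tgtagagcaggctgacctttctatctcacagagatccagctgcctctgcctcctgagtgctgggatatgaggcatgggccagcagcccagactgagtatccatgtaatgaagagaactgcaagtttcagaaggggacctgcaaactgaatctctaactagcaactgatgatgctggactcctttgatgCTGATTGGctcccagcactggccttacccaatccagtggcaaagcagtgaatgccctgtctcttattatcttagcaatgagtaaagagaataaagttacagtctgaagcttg
The core starts 51 bases before the start in H2-Aa and 62 bases before it in H2-Eb1. It is present in 3 of the 10 class II list members with an entry, the third being H2-Oa, which was not called. Of the 3 lower members with an entry H2-Ob does not hold it. It is present in 685 of the 10434 tested genes with an entry (6.57%) and in 1346 of 32851 promoter entries (4.10%). The match is a description of the letters in these windows, and the files were counted on GRCm39, a later build.

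Few interferon-induced genes were called in M1. Of the list of type I interferon-stimulated genes, 45 were tested and 4.44% were called, beside 20.0% of all genes tested. Tor3a (0.31) and Isg20 (0.43) were the 2 that rose and none was lower, with a median of 0.05. In 11 of the 45 every TRα1PV library lay above every WT library, and in none below. Over all genes tested these shares were 5.65% and 5.91%. The number that rose was 1 without TRα1PV replicate 1 or WT replicate 2, 3 or 4, 9 in a fit of the M1 libraries alone, 6 when the fit took each library's share of reads outside genes into account, and 0 without TRα1PV replicates 1 and 3. Irf1, a transcription factor that interferon-γ induces early, averaged 2096 ± 99.5 CPM in TRα1PV cells and 2018 ± 164 CPM in WT cells and was not called (0.05 ± 0.08, adjusted p = 0.66).

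Of 19 interferon-inducible GTPases, which attack the vacuoles of intracellular pathogens, 3 were lower and none higher, with a median of -0.24. The called share was 15.8%, beside 20.0% of all genes tested. In 5 of the 19 every TRα1PV library lay below every WT library, and in none above. Over all genes tested these shares were 5.91% and 5.65%. Gbp2b had 78.1, 92.6, 77.6, 128 and 132 CPM in the TRα1PV libraries, against 146, 390.2, 307, 268 and 345 CPM in the WT libraries. The groups lay apart, with WT replicate 1 the nearest to TRα1PV (-1.52 ± 0.22, adjusted p = 1.28e-05). Tgtp1 averaged 238 ± 29.3 CPM in TRα1PV cells and 425 ± 85.4 CPM in WT cells (-0.83 ± 0.14, adjusted p = 6.23e-05). Gbp4 averaged 1509 ± 84.9 CPM in TRα1PV cells and 2139 ± 330.1 CPM in WT cells (-0.50 ± 0.17, adjusted p = 0.0375), and its call ended on leaving out any 1 library other than TRα1PV replicate 4 or WT replicate 1 (adjusted p = 0.0511 to 0.0907). These families hold close copies, and how reads shared by copies were counted is not given, so single members are uncertain. The number called lower was 5 with the replicate number as a block, 6 without WT replicate 1 and 10 in a fit of the M1 libraries alone.

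The promoters of the 2 called GTPase genes with an entry are given for the interferon-stimulated response element in them. Capitals mark its core, a pair of GAAA blocks with 2 bases between them, searched on both strands. In Gbp2b it reads on the opposite strand, and the build, window and source are those given for the class II genes.
Gbp2b, chr3:142594597-142594896, plus strand: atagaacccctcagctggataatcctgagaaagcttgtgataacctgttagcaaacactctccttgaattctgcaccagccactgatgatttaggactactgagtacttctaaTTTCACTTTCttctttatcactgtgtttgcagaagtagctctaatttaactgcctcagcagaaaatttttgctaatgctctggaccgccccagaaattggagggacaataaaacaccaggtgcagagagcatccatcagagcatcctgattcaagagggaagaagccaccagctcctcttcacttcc
Tgtp1, chr11:48992197-48992496, minus strand: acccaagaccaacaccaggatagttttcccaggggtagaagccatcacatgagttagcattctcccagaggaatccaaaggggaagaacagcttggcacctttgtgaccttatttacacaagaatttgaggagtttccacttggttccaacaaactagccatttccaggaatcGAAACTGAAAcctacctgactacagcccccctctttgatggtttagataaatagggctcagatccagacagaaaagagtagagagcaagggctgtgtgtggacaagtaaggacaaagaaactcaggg
The core was found in 10 of the 11 list members with an entry, 2 of 2 lower members and 8 of 9 that were not called, and in 419 of the 10434 tested genes with an entry (4.02%). It was thus found in lower members and in members that were not called. The interferon-γ activated site TTCNNNGAA was searched in the same way and found in 6 of the 11 and in 851 of those tested genes (8.16%).

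Among genes that restrain inflammation, more were higher than lower. Of 25 tested feedback inhibitors, 8 rose and 3 fell (44.0% called, beside 20.0% of all genes tested), with a median of 0.14. Over all genes tested, 9.74% rose and 10.2% fell. Il10, the anti-inflammatory cytokine interleukin-10, had 9.33, 13.4, 12.98, 7.82 and 8.76 CPM in the TRα1PV libraries, against 2.77, 3.06, 3.73, 2.12 and 2.41 CPM in the WT libraries. Every TRα1PV library lay above the WT range, and the level was 3.70-fold higher (1.89 ± 0.19, adjusted p = 4.22e-08). Dusp1, a phosphatase of p38 and JNK, had 166, 191, 204, 143 and 152 CPM in the TRα1PV libraries, against 90.9, 90.9, 90.5, 83.0 and 93.5 CPM in the WT libraries (0.93 ± 0.13, adjusted p = 1.16e-05). Zfp36, tristetraprolin, which promotes decay of cytokine mRNAs, averaged 1011 ± 129.7 CPM in TRα1PV cells and 647 ± 87.3 CPM in WT cells (0.65 ± 0.10, adjusted p = 1.72e-05). Socs3, an inhibitor of cytokine receptor signalling, averaged 662 ± 157 CPM in TRα1PV cells and 409.7 ± 20.1 CPM in WT cells (0.69 ± 0.15, adjusted p = 0.00136). The members that fell included Irak3 (-0.65), a brake on Toll-like receptor signalling, and Klf4. Without TRα1PV replicates 1 and 3 the number of higher members was 4.

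Of 42 genes of Toll-like receptor and NF-kB signalling, 8 fell and 5 rose, and 31.0% were called. Over all genes tested, 10.2% fell, 9.74% rose and 20.0% were called. The number that rose was 3 without TRα1PV replicate 1 or 3 or WT replicate 4, and 2 without WT replicate 3. Cd14, the LPS co-receptor, had 279, 98.7, 103, 165 and 134 CPM in the TRα1PV libraries, against 329, 286, 256, 285 and 443 CPM in the WT libraries. TRα1PV replicate 1 lay inside the WT range and the other 4 TRα1PV libraries lay below it (-1.03 ± 0.19, adjusted p = 0.00019). Ticam2, the adaptor TRAM, was lower (-0.44) and Tlr5, the flagellin receptor, was higher (1.07). Of 17 inflammasome genes 11.8% were called, beside 20.0% of all genes tested. Nlrp3 (-0.85 ± 0.14, adjusted p = 5.18e-05) and Mefv (-0.75) fell and none rose, and without WT replicate 1 the number that fell was 4. Ptgs2, the inducible cyclooxygenase, had 1928, 1923, 2100.5, 2272 and 3476 CPM in the TRα1PV libraries, against 3411, 3373, 4315, 4089.6 and 3863 CPM in the WT libraries. TRα1PV replicate 5 reached the WT range and the other TRα1PV libraries did not (-0.70 ± 0.15, adjusted p = 0.00134). Its constitutive relative Ptgs1 rose (0.97 ± 0.15, adjusted p = 2.11e-05).

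Genes usually induced by interleukin-4 were more often higher than lower, 8 against 2 of 32 tested, with 5 higher without TRα1PV replicates 1 and 3. Over all genes tested, 9.74% were higher and 10.2% lower. Il4ra, the interleukin-4 receptor chain, had 839, 1019.6, 1143, 628 and 576 CPM in the TRα1PV libraries, against 439, 409, 368, 423 and 389 CPM in the WT libraries (1.05 ± 0.13, adjusted p = 1.29e-06). Its TRα1PV replicates 2 and 3 were the highest and no TRα1PV library entered the WT range. Pdcd1lg2, the PD-1 ligand PD-L2 (0.92), Flt1, a VEGF receptor (0.86), and Mrc1, the mannose receptor (0.54), also rose. Clec7a, the β-glucan receptor dectin-1, fell (-0.97). Among 19 costimulatory and coinhibitory genes 4 rose and 5 fell (47.4% called, beside 20.0% of all genes tested). Those that fell included Slamf8 (-0.99), Cd38 (-0.95) and Havcr2, the TIM-3 gene (-0.92). Cd274, the PD-L1 gene, averaged 6771 ± 596 CPM in TRα1PV cells and 6588 ± 296 CPM in WT cells and was not called (0.04 ± 0.11, adjusted p = 0.839).

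Several receptors for antibody were higher. Fcgr2b, the inhibitory Fcγ receptor, had 225, 269, 232, 203 and 236 CPM in the TRα1PV libraries, against 104, 105, 96.0, 72.1 and 94.3 CPM in the WT libraries. The lowest TRα1PV library was well above the highest WT library, a 2.47-fold difference (1.31 ± 0.12, adjusted p = 1.02e-08). The activating receptors Fcgr4 (0.59) and Fcgr3 (0.44) and their shared signalling chain Fcer1g (0.28) rose as well, as did the scavenger receptor Colec12 (1.18 ± 0.11, adjusted p = 3.04e-08). Of 26 Fc and phagocytic receptors, 8 rose and 4 fell, against 9.74% and 10.2% over all genes tested.

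**Figure D3:**
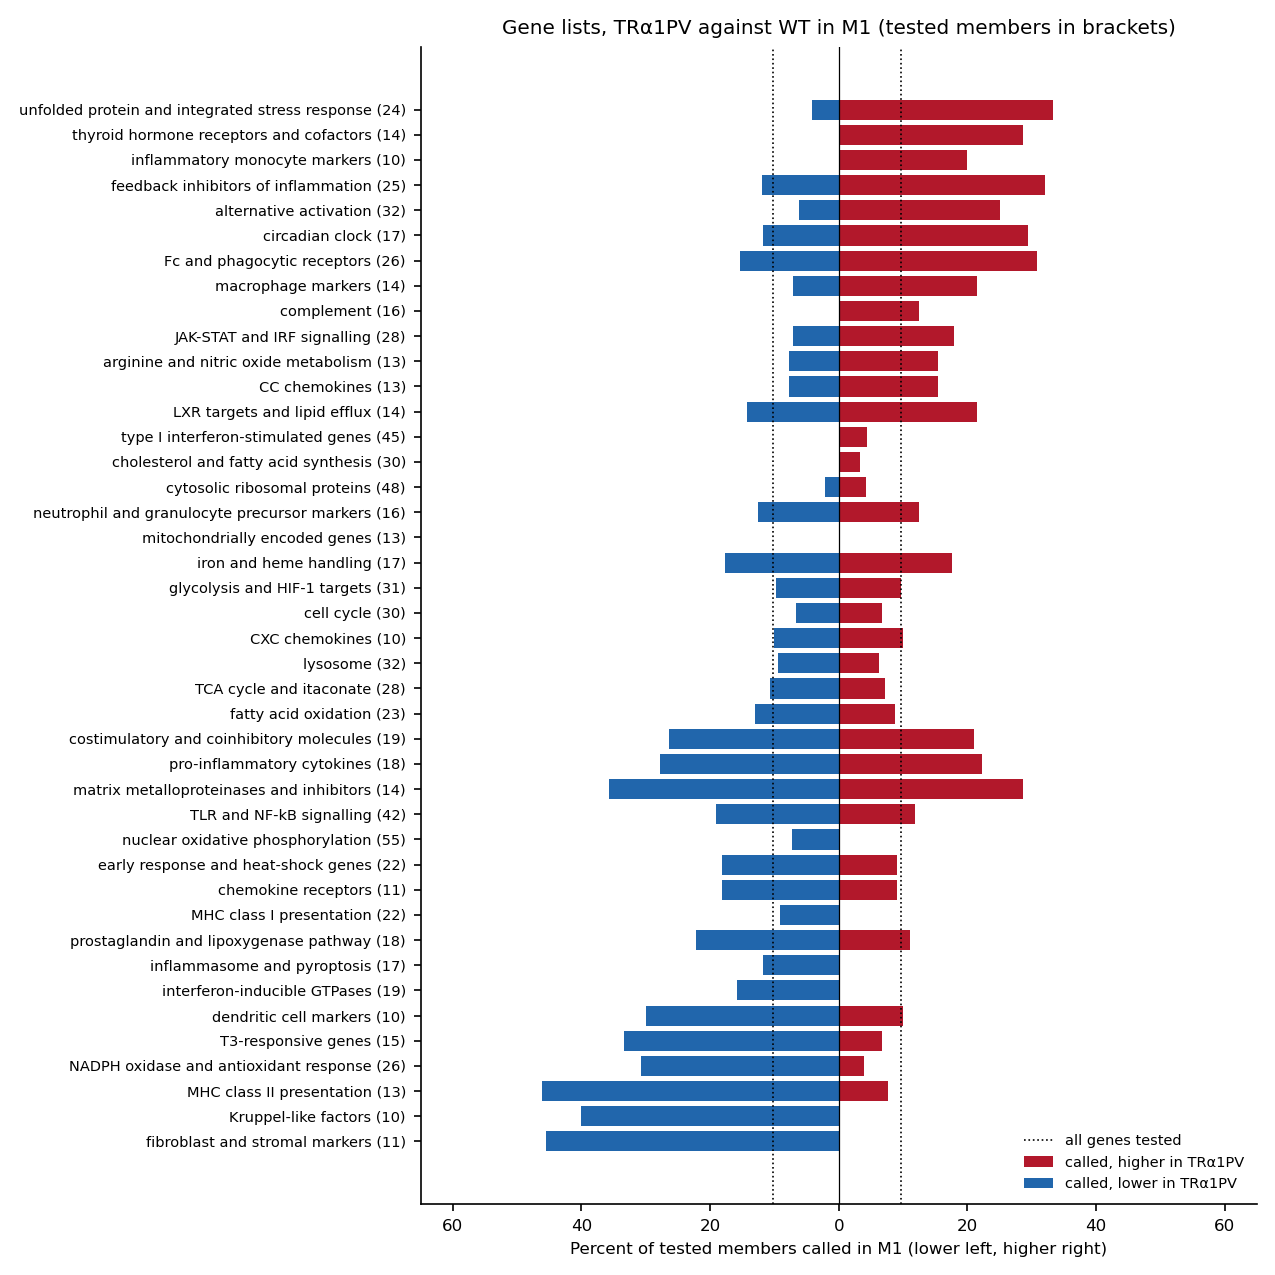
Share of each list's tested members called higher (right) or lower (left) in TRα1PV M1 cells, for the lists with at least 10 tested members, with the dotted lines at the shares over all genes tested, 9.74% and 10.2%. MHC class II genes stand out on the lower side with 6 of 13, and feedback inhibitors (8 of 25) and stress response genes (8 of 24) are on the higher side.

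Of 31 glycolysis and HIF-1 targets, 3 rose and 3 fell in M1 (19.4%, beside 20.0% of all genes tested). The number that rose was 10 with each library's share of reads in no gene as a covariate, 5 without WT replicate 1, 6 without TRα1PV replicate 4 and 1 without TRα1PV replicate 1 or 3 or WT replicate 3 or 4. Vegfa, the vascular growth factor, had 169.9, 124, 150.2, 176 and 218 CPM in the TRα1PV libraries, against 468, 279.9, 272, 379.8 and 343 CPM in the WT libraries. Its groups lay apart (-1.06 ± 0.13, adjusted p = 1.32e-06). Ndrg1, a hypoxia-induced gene, rose (0.77 ± 0.10, adjusted p = 2.44e-06). Ldha, lactate dehydrogenase A (0.05 ± 0.08, adjusted p = 0.689), Hif1a (-0.30 ± 0.13, adjusted p = 0.106) and Acod1, the itaconate synthase (-0.46 ± 0.22, adjusted p = 0.141), were not called. In a fit of the M1 libraries alone, Hif1a (adjusted p = 0.0298) and Acod1 (0.0228) were called. None of the 13 mitochondrially encoded genes was called, with a median of -0.56. Most of the 55 nuclear oxidative phosphorylation genes and of the 48 cytosolic ribosomal protein genes were not called either, with medians of -0.01 and 0.01.

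In the antioxidant list, 8 of 26 genes fell and 1 rose (34.6% called, beside 20.0% of all genes tested). Slc7a11, the cystine transporter, averaged 28.7 ± 11.1 CPM in TRα1PV cells and 57.2 ± 10.1 CPM in WT cells (-0.99 ± 0.23, adjusted p = 0.00233). Gclc, which makes the glutathione precursor, had 16.6, 16.03, 15.6, 16.2 and 15.0 CPM in the TRα1PV libraries, against 24.5, 24.01, 23.1, 25.2 and 24.01 CPM in the WT libraries. The spread within each group was small and the groups lay apart (-0.60 ± 0.08, adjusted p = 6.82e-06). Hmox1, heme oxygenase 1, was the gene that rose (0.44 ± 0.10, adjusted p = 0.00222). The number of lower members was 4 without TRα1PV replicate 3, WT replicate 2 or WT replicate 5, 5 without TRα1PV replicate 2, and 2 without TRα1PV replicates 1 and 3.

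Of 24 genes of the unfolded protein and integrated stress responses, 8 rose and 1 fell (37.5% called, beside 20.0% of all genes tested). Atf5 (0.65 ± 0.13, adjusted p = 0.000542), Atf4 (0.35) and Ddit3, the CHOP gene (0.37), were among those that rose, each a transcription factor of this response. That count was 5 without TRα1PV replicate 1 or WT replicate 3, and 1 without TRα1PV replicates 1 and 3. In the lipid efflux list, Cd5l, an LXR target secreted by macrophages, averaged 16.6 ± 3.21 CPM in TRα1PV cells and 49.5 ± 4.43 CPM in WT cells (-1.57 ± 0.14, adjusted p = 1.02e-08). Nr1h3, the LXRα gene, fell (-0.68), and the lipid exporter Abca1 (0.58) and Apoe, a carrier of lipids (0.82), rose. With the replicate number as a block 5 of the 14 list members were higher, against 3 without it (9.74% of all genes tested were higher). Apoe reached 870 CPM in TRα1PV replicate 5 and was not called without it (adjusted p = 0.0949). Tfrc, the transferrin receptor, fell (-1.08 ± 0.16, adjusted p = 1.91e-05).

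Matrix enzymes held some of the largest differences. Mmp8, the neutrophil collagenase, had 1.76, 2.28, 2.36, 1.89 and 1.14 CPM in the TRα1PV libraries, against 22.3, 8.65, 15.5, 20.2 and 8.53 CPM in the WT libraries, 8.06-fold lower without overlap (-3.01 ± 0.25, adjusted p = 1.47e-09). Timp1, an inhibitor of these enzymes, had 18.8, 55.6, 54.6, 15.6 and 11.2 CPM in the TRα1PV libraries, against 11.1, 6.86, 4.90, 6.46 and 4.19 CPM in the WT libraries. TRα1PV replicates 2 and 3 stood far above the other TRα1PV libraries, all of which exceeded the WT libraries (2.21 ± 0.34, adjusted p = 2.46e-05). Mmp27 (-2.59) and Mmp12, the macrophage elastase (-0.95), fell, and Mmp19 (0.55) and Timp2 (0.45) rose, which with Mmp8, Timp1 and others gives 4 higher and 5 lower of 14 tested (3 lower without TRα1PV replicates 1 and 3). The called share was 64.3%, beside 20.0% of all genes tested. Of 16 neutrophil markers, Mmp8 and Csf3r (-0.30) were lower and Lcn2 (1.19) and Ngp (2.15) higher (25.0% called, beside 20.0% of all genes tested). Csf3r was not called without TRα1PV replicate 5 (adjusted p = 0.0511) or WT replicate 1 (0.0661), and Ngp not without TRα1PV replicate 1 or WT replicate 2, 3, 4 or 5 (0.0591 to 0.117). With the replicate number as a block 4 were higher. Their summed level ranged from 253.2 to 361.8 CPM in TRα1PV and from 263.8 to 330.3 CPM in WT. Of 11 fibroblast markers, 5 were lower (10.2% of all genes tested were) and none higher, and 3 were lower without TRα1PV replicate 1, 3 or 5 or WT replicate 2 or 4. Their sum was 10.2 ± 1.07 CPM in TRα1PV and 11.6 ± 1.05 CPM in WT, Col1a1 had 6 reads over the TRα1PV libraries and 52 over the WT libraries, and Pdgfra had none in either. The part of other cells in these results was not tested.

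The largest decreases among genes with at least 1 CPM were, after Klf9, Itgb8, a chain of the integrin that activates TGF-β, then Mmp8, Gdf3, Ciita, Ido1, H2-Eb1, Nap1l2, Ccnd2, Intu, H2-Aa and Il1b. Itgb8 had 0.215, 0.157, 0.107, 0.151 and 0.247 CPM in the TRα1PV libraries, against 1.40, 2.199, 2.91, 1.91 and 2.80 CPM in the WT libraries, a 12.4-fold difference (-3.63 ± 0.37, adjusted p = 5.04e-08). Ido1, the tryptophan-degrading enzyme induced by interferon-γ, had 1.08, 1.34, 1.00, 1.36 and 0.525 CPM in the TRα1PV libraries, against 4.00, 4.17, 4.35, 4.24 and 3.75 CPM in the WT libraries (-1.96 ± 0.28, adjusted p = 8.6e-06). Ccnd2, cyclin D2, averaged 76.4 ± 15.5 CPM in TRα1PV cells and 263 ± 65.04 CPM in WT cells (-1.78 ± 0.14, adjusted p = 1.06e-09). Intu, a planar cell polarity gene, had 29.3, 32.8, 33.1, 42.5 and 42.8 CPM in the TRα1PV libraries, against 110.0, 131, 128, 116 and 136 CPM in the WT libraries. No WT library came near the TRα1PV range (-1.78 ± 0.09, adjusted p = 1.4e-14). Gdf3 (-2.29), a TGF-β family ligand, and Nap1l2 (-1.83) were low in both genotypes.

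The largest increases were Ripor3, Enpp2, Timp1, Il10, Selp, Hook1, Tgm1, Tnn, Armcx2, Sirpb1c, Vgf and Stk32c. Enpp2, autotaxin, which makes lysophosphatidic acid, had 4.84, 7.46, 6.69, 1.96 and 1.91 CPM in the TRα1PV libraries, against 1.20, 0.857, 0.959, 1.09 and 0.434 CPM in the WT libraries. TRα1PV replicates 1, 2 and 3 were the highest and the groups lay apart (2.31 ± 0.40, adjusted p = 0.000107). Ripor3 averaged 2.02 ± 0.757 CPM in TRα1PV cells and 0.361 ± 0.133 CPM in WT cells (2.47 ± 0.36, adjusted p = 1.48e-05). Tgm1, a transglutaminase, averaged 7.51 ± 2.65 CPM in TRα1PV cells and 2.31 ± 0.361 CPM in WT cells (1.69 ± 0.17, adjusted p = 6.52e-08), and Armcx2 averaged 6.83 ± 1.02 CPM in TRα1PV cells and 2.15 ± 0.183 CPM in WT cells (1.67 ± 0.17, adjusted p = 4.71e-08). Sirpb1c (1.62) belongs to a family of near-identical genes, so its value is uncertain. Apart from Klf9, Intu, Ccnd2, Mmp8 and Fcgr2b, the 10 smallest p-values belonged to Hacd3, Blnk, Cuedc1, Gnptab and Tmem273, all lower. Blnk, an adaptor of B cell receptor signalling that macrophages also express, averaged 41.2 ± 5.39 CPM in TRα1PV cells and 89.5 ± 10.3 CPM in WT cells (-1.12 ± 0.08, adjusted p = 2.68e-10). Gnptab, which tags enzymes for the lysosome, averaged 108 ± 11.1 CPM in TRα1PV cells and 199 ± 16.4 CPM in WT cells (-0.88 ± 0.08, adjusted p = 5.6e-09).

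**Figure D4:**
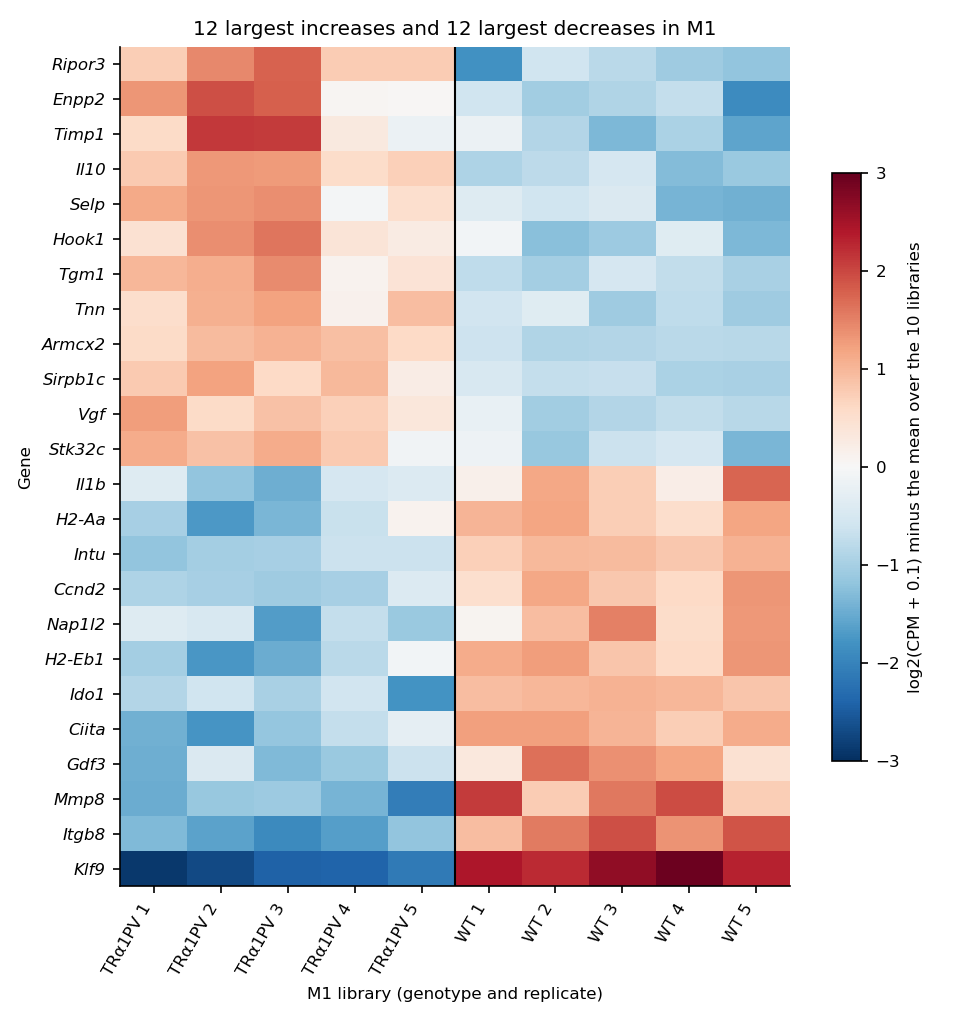
Heat map of the 12 largest increases and 12 largest decreases in M1, one row a gene and one column a library (TRα1PV left, WT right), coloured by log2(CPM + 0.1) minus the gene's mean over the 10 libraries. The 24 genes were chosen for groups that do not overlap, and Timp1 is highest in TRα1PV replicates 2 and 3.

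Many differences depended on the state. The comparisons with M0 and M2 share the M1 libraries. The genotype effect in M1 differed from that in M0 in 4175 genes (26.6%), of which 2091 were more positive in M1 and 2084 more negative, and from that in M2 in 3418 genes (21.8%), 1660 more positive and 1758 more negative. Without TRα1PV replicates 1 and 3 these counts were 1906 and 1076. TRα1PV against WT gave 4072 calls in M0 (26.0%) and 2055 in M2 (13.1%). Of the M1 calls 1050 were also called in M0, 33.5% of the M1 calls and 25.8% of the M0 calls, and 673 of these had the same sign. In M2, 581 M1 calls were shared, 18.6% of the M1 calls and 28.3% of the M2 calls, with 414 of the same sign. All 3 states shared 399 calls, 308 of them with 1 sign.

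Interferon-stimulated genes differed between M1 and M0. In M1, 2 of the 45 were higher in TRα1PV with a median log2 fold change of 0.05, whereas in M0, 44 were higher (12% of all genes tested were) and none lower, with a median of 1.22. The test of the difference was passed by 40 of 45, all more negative in M1 (13.3% of all genes). Of the 19 GTPases none was higher in M1 and 18 were in M0, and 18 differed, again all more negative in M1. Both counts were the same when any 1 M1 library was left out. Markers of other cells differed in M0 too. There, 14 of 16 neutrophil and granulocyte precursor markers were higher in TRα1PV and 2 lower, with summed levels of 327.3 to 581.0 CPM in TRα1PV and 373.0 to 560.2 CPM in WT. Of 10 inflammatory monocyte markers 6 were higher and 1 lower, with sums of 1110.0 to 1410.4 CPM in TRα1PV and 531.1 to 655.4 CPM in WT. Of 11 fibroblast markers 10 were lower, with sums of 2.42 to 4.27 CPM in TRα1PV and 8.25 to 28.9 CPM in WT. The B cell marker list summed to 19.4 to 23.7 CPM in TRα1PV and 203.0 to 259.4 CPM in WT. Of its 12 genes only 3 were tested, 1 higher and 1 lower in TRα1PV in M0, with a median of 0.36. The sum therefore does not show a fall across the list. The part of these cells in the M0 result was not tested. Gbp2b was lower in TRα1PV in M1 and higher in M0 (1.38 ± 0.51, adjusted p = 0.0427), a difference of -2.90 ± 0.54, adjusted p = 0.00033. In Ifi47, another GTPase of this list, the difference was -1.65 ± 0.17, adjusted p = 2e-07. In M2, 3 of the 19 GTPases were higher (6.14% of all genes) and 1 lower. Of the 45 interferon-stimulated genes, 1 was higher and 1 lower in M2, with a median of 0.13. That was 4.44% called, as in M1, beside 13.1% of all genes tested in M2.

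For MHC class II genes the pattern was another. Against 6 lower and 1 higher in M1, 1 of 13 was higher in TRα1PV and none lower in M0, and in M2 6 were lower (6.96% of all genes tested) and none higher. Ciita was not called in M0 (0.13 ± 0.27, adjusted p = 0.766) and was lower in M2 (-1.03 ± 0.24, adjusted p = 0.00414). Its M1 effect minus its M0 effect was -2.20 ± 0.36, adjusted p = 0.000106, and minus its M2 effect -1.04 ± 0.34, adjusted p = 0.0292. H2-Eb1 (-1.80 ± 0.46, adjusted p = 0.00508) and H2-Aa (-1.66 ± 0.46, adjusted p = 0.00971) also had a more negative effect in M1 than in M0. They were among 4 of 13 list members that did (2 without TRα1PV replicates 1 and 3), beside 13.3% of all genes tested. Between M1 and M2 the difference of Ciita was the 1 call of 13 (21.8% of all genes tested were called), and it ended without TRα1PV replicate 1, 2 or 3.

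Several other genes had a genotype effect in M1 that differed from both other states. The M1 effect minus the M0 effect of Il1b was -1.51 ± 0.33, adjusted p = 0.00158, and minus the M2 effect -1.32 ± 0.37, adjusted p = 0.0142. For Il10 the M1 effect exceeded the M0 effect by 1.19 ± 0.27, adjusted p = 0.00196 and the M2 effect by 1.29 ± 0.30, adjusted p = 0.0038. Klf9, at -5.19 in M1, was lower by less in M0 (-3.81) and M2 (-2.31), with an M1 effect below the M0 effect (-1.37 ± 0.24, adjusted p = 0.000169) and the M2 effect (-2.88 ± 0.21, adjusted p = 3.01e-10). Intu was at -1.78 in M1, -0.41 in M0 and -0.04 in M2. Hacd3, a very-long-chain fatty acid dehydratase, was at -1.34 in M1, -0.09 in M0 and -0.02 in M2. For both genes the M1 effect differed from the M0 effect (-1.37 ± 0.13, adjusted p = 1.16e-07 for Intu and -1.24 ± 0.12, adjusted p = 1.64e-07 for Hacd3). Rin2, a regulator of RAB5, had 105, 108, 100.2, 94.7 and 107 CPM in the TRα1PV libraries, against 84.4, 108, 115, 90.1 and 109.7 CPM in the WT libraries. Those M1 groups overlapped (0.02 ± 0.09, adjusted p = 0.899), while Rin2 was lower in TRα1PV in M0 (-1.59 ± 0.09, adjusted p = 1.55e-13) and M2 (-1.79 ± 0.10, adjusted p = 2.93e-14). Enpp2 was higher in M1 and lower in M0 (-2.82 ± 0.78, adjusted p = 0.00826). Vegfa fell in all 3 states, to -1.06 in M1, -1.99 in M0 and -1.63 in M2, and the M1 effect was the weakest (minus the M0 effect 0.94 ± 0.18, adjusted p = 0.000556, minus the M2 effect 0.57 ± 0.19, adjusted p = 0.0283). Of the 25 feedback inhibitors, 8 were higher and 3 lower in M1 and 2 higher and 8 lower in M0, and 9 had a more positive effect in M1 (13.3% of all genes tested had). Of the 31 glycolysis genes 3 were lower in M1 and 17 in M0 (14.0% of all genes), and 15 had a more positive effect in M1, beside the same 13.3%.

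**Figure D5:**
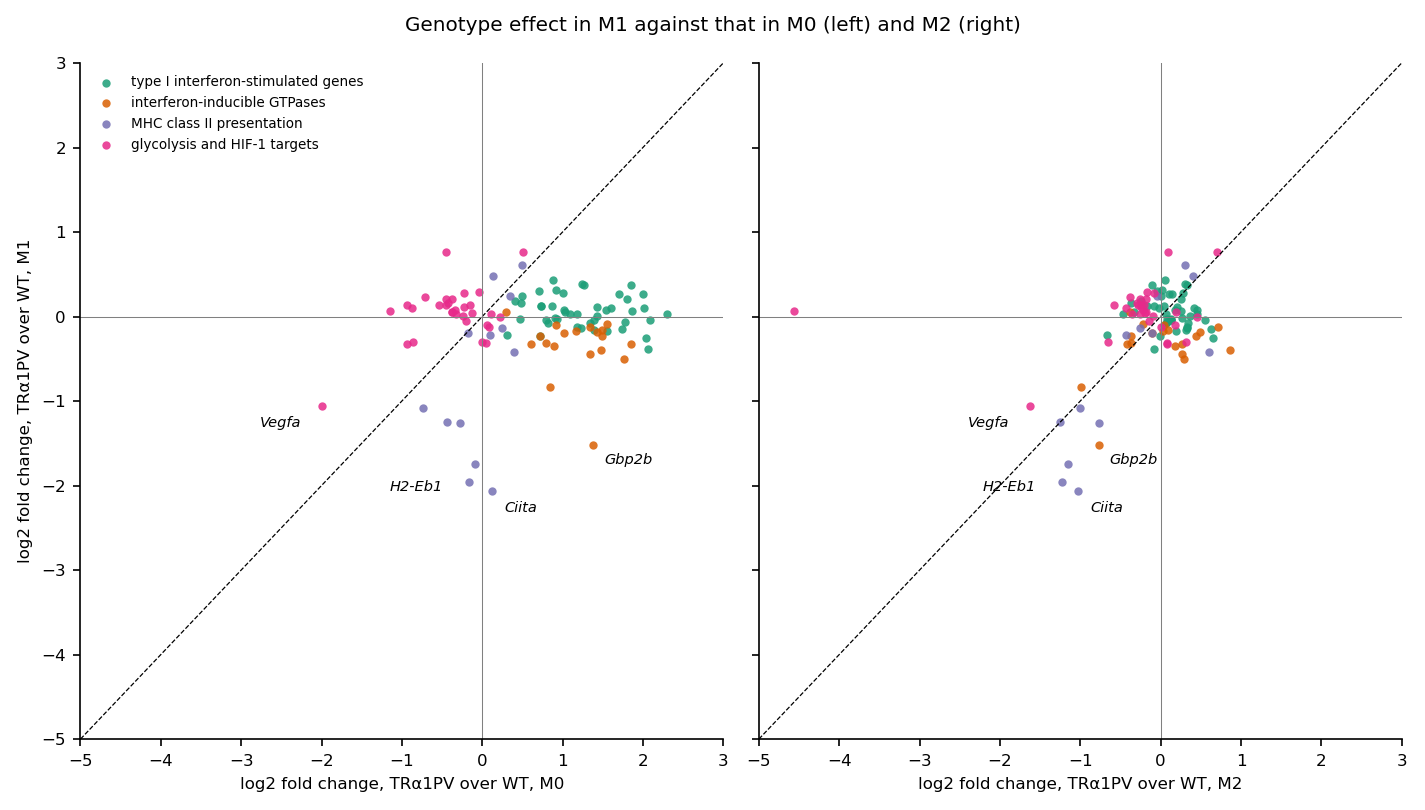
log2 fold change of TRα1PV over WT in M1 (vertical axis) against that in M0 (left) and M2 (right) for the tested members of 4 lists, with the dashed line of equal effects. Interferon-stimulated genes lie far right of the line in the M0 panel, where their median is 0.05 in M1 and 1.22 in M0. The MHC class II genes Ciita and H2-Eb1 lie below the line in the M0 panel. Ciita also does so in the M2 panel, where the class II list has medians of -0.42 in M1 and -0.44 in M2.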

How the data were processed

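PolyA RNA of 30 macrophage libraries was sequenced. Reads per gene were counted by the authors with HTSeq 1.99.2 on GRCm39, and the deposited values are raw counts, per the labels and the submitters' processing notes. These notes list, with no role, R 4.3.2, limma, edgeR, FastQC 0.11.9, HISAT2 2.2.1, Cufflinks and Trimmomatic 0.39. No source used here gives the annotation release, the strand setting or the handling of shared reads. In M1, reads in no gene came to 10.2 ± 0.762% of the total in TRα1PV and 9.65 ± 0.892% in WT (SD, n = 5 each), and these lines were left out of library sizes. Identifiers were paired with symbols through the supplied reference of GRCm38.p6, an earlier build used only for symbols and RefSeq promoters.

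Counts of all 30 libraries were fitted with edgeR 4.0.16 in R 4.3.3: TMM scaling, a filter on low counts (filterByExpr, minimum 10) that left 15686 genes, 6 group means and the quasi-likelihood test, with Benjamini-Hochberg adjustment. The genotype effect was tested in each state, and its difference between M1 and the other states as an interaction. SEs are approximate, taken from the size of the effect over the root of its F statistic. Alternatives used DESeq2 1.42.0, limma 3.58.1, other scaling, no filter, the M1 libraries alone, a covariate, a replicate block and each library left out. Named genes were Thra, Thrb, Klf9, Hr and Nr1d1, the 12 largest called changes each way at 1 CPM or more without overlap between the genotypes, the 10 smallest p-values, up to 6 called members of each of 48 lists with members such as Nos2 and Cxcl9 that a list is known for, and the 8 smallest p-values of each interaction. Of the decreases, 1 predicted gene model was passed over, marker genes are named with their cell type, and the text gives a part of the genes so named. The members and lists were chosen with earlier results of these data known. On simulated data of the M1 comparison over 15520 genes, changes of 0.5, 1 and 2 on the log2 scale were set in 67, 67 and 66 genes. They were recovered in 67.2%, 94.0% and 100.0% of these genes. Of 196 calls 22 were false, a larger share than the 5% set by the adjustment. The changed genes averaged at least 1 CPM in M1 and no other genotype effect was set. The simulation thus covers neither genes of low counts nor data with many changes. Labels give each replicate number as a batch, so the numbers pair the libraries. The same numbers run through all 3 states. Whether libraries of 1 genotype and number came from the same animal is not stated, and the main fit took all 30 libraries as independent. In M1, deviations of same-numbered TRα1PV and WT libraries correlated at -0.17 to 0.17, with 2 of 5 pairs over 0.1. No 2 replicates agreed within sampling noise. The depth of 30667234 to 41543794 reads in genes limits precision most in genes of low counts.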

Additional observations from a re-analysis of the deposited data

Results flagged for a closer look

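In 18 of 298 groups of 5 M1 libraries examined, 1 library stood far from the other 4; chance gives about 5% of groups. TRα1PV replicate 5 was the far library in 7 of them. It had 532 CPM of Il12b, 27.6 CPM of Il6, 3476 CPM of Ptgs2, 4997 CPM of Cxcl9, 128 CPM of Klf13, 104 CPM of Ccnd2 and 14.6 CPM of Flt1. For Il12b, Il6 and Ptgs2 this value lay inside or above the WT range, while the other 4 TRα1PV libraries lay below it. Among the other TRα1PV libraries, replicate 1 stood apart for Ngp (2.30 CPM) and Sparc (0.215 CPM) and replicate 4 for Arg1 (10.4 CPM). In WT, replicate 3 stood apart for Cxcl9 (5080.0 CPM), Marchf1 (118 CPM), Dcn (3.43 CPM) and H2-Ob (2.60 CPM), and replicate 4 for Arg1 (12.2 CPM) and Dusp1 (83.0 CPM). WT replicate 1 stood apart for Zfp36 (796 CPM), and WT replicate 5 for Thrb (0.0395 CPM, 1 read).

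The genotype effect, log2 of TRα1PV over WT, differed between M1 and M0 in 4175 genes and between M1 and M2 in 3418 by edgeR's interaction test. Of the genes named for it, these had a more positive effect in M1 than in both other states, given as the difference from M0 and then from M2: 0.71 and 0.68 for Apobec1, 0.98 and 1.17 for Bcl3, 5.14 and 4.32 for Enpp2, 0.54 and 0.93 for Fcgr2b, 1.19 and 1.29 for Il10, 2.18 and 1.69 for Pcp4l1, 1.04 and 0.47 for Por, 0.41 and 0.86 for Pstpip1, 1.61 and 1.82 for Rin2, 0.67 and 0.39 for Rxra, 3.81 and 2.40 for Timp1, 0.88 and 0.64 for Trp53inp2 and 0.94 and 0.57 for Vegfa. A more negative effect in M1 than in both was found, in the same order, as -2.20 and -1.04 for Ciita, -1.24 and -1.31 for Hacd3, -1.51 and -1.32 for Il1b, -1.37 and -1.74 for Intu, -1.37 and -2.88 for Klf9 and -1.05 and -1.34 for Tbc1d4. Against M0 alone, the difference was -2.90 for Gbp2b, -1.66 for H2-Aa, -1.80 for H2-Eb1, -1.65 for Ifi47 and 1.47 for Mmp8.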

How the results depend on the processing

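The genotype effect in M1 was refitted under 19 alternatives, and no gene called in both a refit and the original fit changed sign. Leaving out each library in turn gave 2157 to 3522 calls, 1033 to 1747 higher and 1124 to 1775 lower, with 231 to 366 at least 2-fold, and 3173 to 4578 differences from M0 and 2288 to 3978 from M2. Each library's share of reads outside genes, entered as a covariate, gave 5467 calls (2606 higher, 2861 lower). Without both TRα1PV libraries of lowest mitochondrial share, an alternative chosen after seeing the data, there were 1370 (561 higher, 809 lower), with 1906 differences from M0 and 1076 from M2. No filter gave 2445 calls, 42.9% of them higher, and the other settings 2693 to 3453. With the replicate block, which pairs the libraries, there were 3411 calls, 4617 differences from M0 and 3887 from M2, and apart from the list counts given above it changed no other call of a named gene. With the block on the M1 libraries alone Tnf (adjusted p = 0.0511), Ncoa1 (0.0585) and Pcp4l1 (0.0735) were not called, and Hif1a (0.0248) and Acod1 (0.0454) were.

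Of 134 called genes followed, 100 kept their call under every alternative, Il1b, Il10, Ciita, H2-Eb1 and Klf9 among them, and 34 lost it in at least 1. Hif1a (adjusted p = 0.00133 with the covariate), Acod1, Apobec1 and Trp53inp2, not called at first, were called in at least 1. Without both of those libraries Il6 (adjusted p = 0.165), Tnf (0.0971), Il12b (0.366) and Il1a (0.185) were not called. The sign of the log2 fold change turned in genes that were not called: Ccl5 (-0.0598 without both libraries, and -0.0424 to 0.0943 with 1 library left out, negative without TRα1PV replicate 1 or 5 or WT replicate 3 or 4), Cd274 (-0.0048 without TRα1PV replicate 5 to 0.0785 without TRα1PV replicate 1), Cxcl9 (0.0212 with the covariate), Ldha (-0.0282 without both libraries) and Rin2 (-0.0393 without WT replicate 1 to 0.0688 without WT replicate 3, and -0.0199 without WT replicate 4). TRα1PV minus WT, the difference in reads in genes spanned -969730 to 1749400 with 1 library left out, that in the percentage of ambiguous reads -0.0466 to 0.0112, and that in summed monocyte markers -37.6 to 27.3 CPM. Depth limits Thrb, Col1a1 and the other genes with few reads.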
